A study of Mus musculus with 12 samples.

Results

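Fut9, the Lewis X carrier Ptprz1 and 7 further genes that build or sort glycans are described here in RNA from mouse brain sections: B4galt1, Nans, Slc35a1, Casd1, Galnt12, Alg2 and Golph3. They were chosen by symbol, as glycan-building genes that lie in 4 stretches of the genome where the levels in the deposited table match exons, with Ptprz1 added as a carrier. They are 9 of the 56923 rows of the table. The libraries were made from polyadenylated RNA of wild-type (WT) mouse brain sections. The sections had spent 5 hours in aCSF, artificial cerebrospinal fluid, the salt solution that keeps slices alive, or in aCSF plus L-fucose, with 6 libraries per condition. Both groups are wild type, and the labelled difference between them is the sugar. No source used here gives the brain region, the age or number of the mice, or the dose of L-fucose. Libraries are named by group and replicate number, and p-values measure the spread between these libraries, which may in part be technical. The same numbers occur in both groups, no label says whether they mark the same animal, and the libraries were treated as unpaired.

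Glycans are assembled by enzymes that act one after another in the endoplasmic reticulum and the Golgi. L-fucose is a sugar that cells can take up and turn into GDP-fucose, the donor that fucosyltransferases use. Lewis X is a terminal sugar group made when FUT9 adds fucose to N-acetyllactosamine, the galactose and N-acetylglucosamine unit that B4GALT1 and related enzymes build. In brain it is carried by glycoproteins and proteoglycans, among them phosphacan, the secreted form of the receptor phosphatase PTPRZ1, which astrocytes, radial glia and oligodendrocyte precursors make. Sialic acids compete for the same ends of glycans.

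Library totals ran from 9191687 to 18563078 reads, and values are normalized reads, the reads of a row divided by 1 size factor per library. Around each of the 9 genes, the mean levels of the 80 nearest rows of its stretch were matched to protein-coding exons at displacements of up to 600 kb. The best match was at no displacement for 7 genes, at 1000 bp for Golph3 and at -500 bp for Ptprz1, with correlations across rows at no displacement from 0.74 to 0.87. The highest correlation beyond 1000 bp was close to this for Fut9 (0.82 against 0.87) and Golph3 (0.73 against 0.74), so for these windows the check separates positions less well. In the stretches 81.8% of 351 protein-coding rows had enough reads to be tested, against 36.0% of 21332 elsewhere, while for other rows the shares were 8.3% and 8.6%. The stretches had been chosen because levels in this same table match exons there. The matches and these shares therefore describe that choice and are not an independent check of it. All 8 neuronal markers in the stretches were tested, and their summed level was 45340 to 51670 in aCSF and 46010 to 50810 in L-fucose. aCSF 5 and aCSF 6 stood apart, with the fewest rows above 0 (14340 and 14856, against at least 16514) and the highest mitochondrial shares (41.9% and 44.8% of reads). L-fucose 6 was close to them in mitochondrial share (40.5%, with L-fucose 2 next at 37.0%) but not in rows above 0 (16960). Results that move with aCSF 5 and 6 are given with and without these libraries.

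For 5 of the 9 genes a RefSeq promoter window of GRCm38.p6 was matched, 250 bases before to 50 bases after a start site. Those of B4galt1, Ptprz1 and Golph3, which enter differences or pairs described below, are shown, and those of Slc35a1 and Casd1 are not. They are printed 5′ to 3′ along the gene, with capitals marking GC boxes (GGGCGG on either strand) and CCAAT boxes (CCAAT on either strand). The windows are chr4:40853935-40854234 on the minus strand, chr6:22875252-22875551 on the plus strand and chr15:12321246-12321545 on the plus strand.
B4galt1: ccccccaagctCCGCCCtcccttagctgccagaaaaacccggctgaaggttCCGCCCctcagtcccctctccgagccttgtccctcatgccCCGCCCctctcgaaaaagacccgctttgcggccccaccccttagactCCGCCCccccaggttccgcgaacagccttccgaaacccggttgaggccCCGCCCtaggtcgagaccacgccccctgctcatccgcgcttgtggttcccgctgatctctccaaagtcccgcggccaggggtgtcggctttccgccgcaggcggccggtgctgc
Ptprz1: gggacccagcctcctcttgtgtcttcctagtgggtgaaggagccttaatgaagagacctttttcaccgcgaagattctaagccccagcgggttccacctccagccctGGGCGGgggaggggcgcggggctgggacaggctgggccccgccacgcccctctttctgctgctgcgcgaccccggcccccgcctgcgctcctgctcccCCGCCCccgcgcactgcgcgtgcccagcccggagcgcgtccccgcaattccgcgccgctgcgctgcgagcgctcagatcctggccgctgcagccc
Golph3: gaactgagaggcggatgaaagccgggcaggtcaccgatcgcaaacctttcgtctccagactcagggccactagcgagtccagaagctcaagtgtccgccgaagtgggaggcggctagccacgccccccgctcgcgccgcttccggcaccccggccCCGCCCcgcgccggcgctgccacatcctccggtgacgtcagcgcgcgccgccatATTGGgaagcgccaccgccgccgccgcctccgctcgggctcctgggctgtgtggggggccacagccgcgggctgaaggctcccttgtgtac

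All 3 windows were rich in CpG, with 26 CpG dinucleotides for B4galt1, 29 for Ptprz1 and 36 for Golph3, against a median of 7 over 32851 windows. The B4galt1 window held 5 GC boxes, the Ptprz1 window 2 and the Golph3 window 1, and 35.7% of all windows held at least 1. A CCAAT box was found for Golph3 alone among these 3, its first base 41 bases before the start site (37.4% of all windows held one). The Golph3 window also held 1 cAMP response element (TGACGTCA), 63 bases before the start site, a sequence present in 1.8% of windows. The TATA box (TATAAA) and the E-box (CACGTG) were searched on both strands as well and had 0 matches in the 3 windows. They occur in 13.6% and 7.2% of all windows. A match describes letters only.

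Setting L-fucose against aCSF asks whether the added sugar goes with a change in the transcripts of the machinery that would use it. None of the 9 genes passed the adjusted threshold in limma, with adjusted p from 0.827 to 0.988, as did 0% of all 10787 tested rows (smallest adjusted p 0.498). At an unadjusted p under 0.05 there was 1 gene, Ptprz1, on the lower side, where 2.79% of all tested rows and 6.9% of those in the stretches lay. There were 0 on the higher side, against 3.17% and 1.44%. These counts moved with the libraries and the tool. With aCSF 5 and 6 left out, B4galt1 (p 0.045) and Nans (p 0.0462) were under 0.05 on the higher side and Ptprz1 on the lower, where 5.37% and 5.92% of all rows tested then lay. In limma without aCSF 1 or aCSF 4, Fut9 was under 0.05 on the lower side (p 0.0499 and 0.0216). Golph3 was so without aCSF 1, aCSF 2, aCSF 4 or L-fucose 1. Without aCSF 6, B4galt1 was under 0.05 on the higher side (p 0.0411). In these fits 5.69% to 7.26% of all rows tested were under 0.05 in either direction. On recovered reads Golph3 joined Ptprz1 on the lower side in edgeR (p 0.0427) and DESeq2 (p 0.0408), beside 2.91% and 1.96% of the rows tested, with 0 of the 9 genes on the higher side (2.7% and 1.67%). DESeq2 was run without a filter on level, over 29080 rows against 10771 in edgeR. Its shares therefore include rows of few reads and are not alike to the others. Fold changes ran from -0.30 to 0.37 (log2, L-fucose minus aCSF), 4 positive and 5 negative, where 48% of all tested rows and 60.6% of those in the stretches were negative. The median was -0.01 beside 0.01 over all tested rows and -0.05 over the 348 tested rows of the stretches. In 0 of the 9 genes were the 2 groups free of overlap. Over all tested rows this held for 0.148% with L-fucose higher and 0.139% with it lower. The 95% interval left out changes as large as 1 log2 unit for 8 of the 9 genes, all but Galnt12, as it did for 64.3% of all tested rows and 80.5% of those in the stretches.

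**Figure D1:**
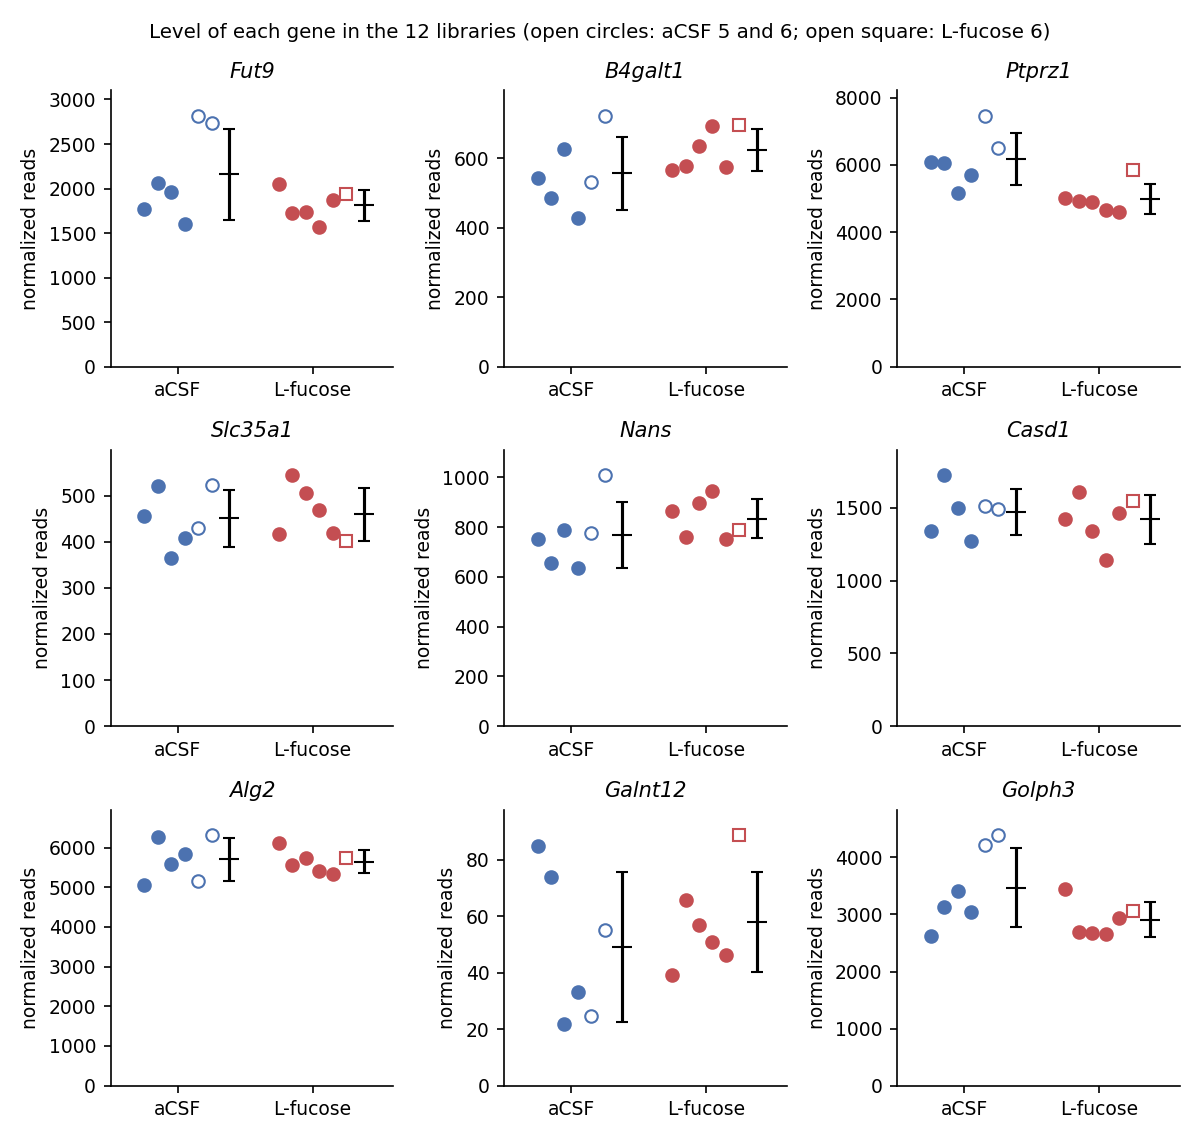
Normalized reads (vertical axis, from 0) of each of the 9 genes in the 6 aCSF (blue) and 6 L-fucose (red) libraries, with the mean and SD of each group in black. aCSF 5 and 6 (open circles) are the highest libraries of Fut9, Golph3 and Ptprz1, and the groups overlap in every panel.

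Fut9, the fucosyltransferase of Lewis X (ENSMUSG00000055373, chr4:25609332-25800244 in GRCm38, minus strand), was read at 1770, 2065, 1957, 1602, 2819 and 2741 normalized reads in aCSF 1 to 6. In L-fucose 1 to 6 it was at 2048, 1720, 1739, 1563, 1875 and 1934. The L-fucose libraries lay within the range of aCSF 1 to 4 apart from L-fucose 4, which was just under it, and aCSF 5 and 6 lay above all the others. The means were 2159 ± 507 in aCSF and 1813 ± 174 in L-fucose (SD, n = 6 each), which is -0.23 on the log2 scale (standard error 0.13, interval -0.49 to 0.04, limma adjusted p 0.848). Without aCSF 5 and 6 it was -0.03. As sections are bulk tissue, fewer cells that express a gene and less RNA of it per cell cannot be told apart.

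B4galt1 (ENSMUSG00000028413, chr4:40804602-40854005, minus strand), the galactosyltransferase that makes the acceptor on which FUT9 acts, stood at 543.1, 486.8, 625.6, 429.1, 531.7 and 723.1 in aCSF 1 to 6. In L-fucose 1 to 6 it stood at 567.3, 579, 636.5, 692.9, 573.8 and 697.3. All 6 L-fucose libraries were above the aCSF median, which 6.22% of all tested rows and 6.03% of those in the stretches also showed, but aCSF 6 was the highest library of all. The means were 557 ± 104 and 624.5 ± 60.1, a log2 fold change of 0.18 (standard error 0.13, interval -0.08 to 0.44, limma adjusted p 0.872). It was 0.27 without aCSF 5 and 6 (adjusted p 0.436).

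The ratio of these neighbouring steps was taken per library, a measure chosen after the values had been seen. B4galt1 amounted to 34.8 ± 5.75% of the Fut9 value in L-fucose and 26.4 ± 4.78% in aCSF, with ranges of 27.7 to 44.3% and 18.9 to 32.0%. The difference of 8.45 percentage points had an exact two-sided permutation p of 0.0195, and of 0.0974 adjusted over the 5 measures per library that were compared. These were total reads, rows above 0, mitochondrial share, this ratio and Ptprz1 per Fut9. The adjustment therefore does not cover the choice of this ratio among the possible pairs of genes. Without aCSF 5 and 6 the difference was 6.58 percentage points (exact p = 0.0762, adjusted 0.238). The groups overlapped.

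Ptprz1 (ENSMUSG00000068748, chr6:22875502-23052916, plus strand) had 6100, 6059, 5176, 5710, 7468 and 6495 normalized reads in aCSF 1 to 6. The L-fucose values were 5025, 4918, 4904, 4652, 4603 and 5845. L-fucose 1 to 5 were all below every aCSF library, and L-fucose 6 alone lay among them, above aCSF 3 and 4. All 6 were below the aCSF median, as in 7.92% of all tested rows and in 12.4% of those in the stretches. The means were 6168 ± 776 and 4991 ± 449, giving -0.30 on the log2 scale (standard error 0.09, interval -0.49 to -0.11). The unadjusted p was 0.00402 and the limma adjusted p 0.827. With aCSF 5 and 6 left out the log2 fold change was -0.21 (adjusted p 0.393), and with L-fucose 6 also left out, a choice made after the values had been seen, it was -0.25 (0.230).

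Ptprz1 is itself the one glial marker among the fixed markers inside the stretches, so no second glial gene could be set beside it there. Markers of ependyma and choroid plexus, the cells that line the ventricles, had values on the same side: all 5 were negative, 4 of them at an unadjusted p under 0.05, with a median of -0.76. Of all tested rows 48% were negative and 2.79% were lower at that p (60.6% and 6.9% in the stretches), and 0 of the 5 markers passed after adjustment in limma (smallest adjusted p 0.775). Their summed level was 552 to 1088 in aCSF and 379.5 to 648.9 in L-fucose, and without aCSF 5 and 6 all 5 were still negative (median -0.75). None of these 5 markers was at 0. The fibroblast and vessel markers, 3 genes, had a median of -0.01, with summed levels of 1210 to 1682 and 1282 to 1521. The T cell marker Il7r was at 0 to 24.7 normalized reads in L-fucose and 11.1 to 23.7 in aCSF. The 8 neuronal markers had 6 negative and 2 positive values with a median of -0.07, 1 of them lower at an unadjusted p under 0.05. Markers of striatal neurons lay on the other side: both were positive, with a median of 0.39 (0.57 without aCSF 5 and 6) and summed levels of 4045 to 10700 in aCSF and 7579 to 13900 in L-fucose. One of them, the enkephalin precursor Penk, was at 0.61 with an unadjusted p of 0.00572 (limma adjusted p 0.827). Both interneuron markers, Dlx5 and Dlx6, were positive as well, with a median of 0.27 (0.45 without aCSF 5 and 6). The part of any of these cells in the values of the 9 genes was not tested.

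The carrier relative to the enzyme, Ptprz1 per Fut9, stood at 2.94 ± 0.48 in aCSF against 2.77 ± 0.25 with L-fucose (n = 6 each, two-sided exact p = 0.448, adjusted 0.560). Without aCSF 5 and 6 the aCSF value was 3.15 ± 0.43 (exact p = 0.124, adjusted 0.238). The libraries ran from 2.37 to 3.57 in aCSF and from 2.45 to 3.02 with L-fucose, so the groups overlapped.

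The sialic acid genes supply, carry and modify the sugar that caps many glycans. Nans, the synthase that makes sialic acid phosphate (ENSMUSG00000028334, chr4:46489248-46503632, plus strand), was at 752.8, 656.8, 786.5, 635.6, 777.4 and 1009 in aCSF 1 to 6. It was at 864.9, 761.4, 896.6, 945.1, 750.8 and 787.8 in L-fucose. The means were 769.8 ± 133 and 834 ± 79.4, a log2 fold change of 0.13 (interval -0.12 to 0.37, limma adjusted p 0.895). aCSF 6 was again the highest library, and without aCSF 5 and 6 the value was 0.24 (adjusted p 0.440). Trim14, on the other strand, shares 29.6% of the exonic bases of Nans, so its level is uncertain without a stated strand setting.

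Slc35a1, which carries CMP-sialic acid into the Golgi (ENSMUSG00000028293, chr4:34663257-34687438, minus strand), had 450.3 ± 62.6 in aCSF and 459.1 ± 57.1 in L-fucose. Its libraries ran from 365.1 to 522.5 and from 400.5 to 544.3, and the log2 fold change of 0.03 (-0.23 to 0.29) turned negative without aCSF 3 (-0.028) or L-fucose 2 (-0.020). Casd1, the Golgi enzyme that O-acetylates sialic acid (ENSMUSG00000015189, chr6:4600839-4643355, plus strand), had 1474 ± 158 and 1421 ± 167, a log2 fold change of -0.05 (-0.27 to 0.16). Without L-fucose 4, its lowest library at 1140, the value was 0.0070. Nans, Slc35a1 and Casd1 thus had intervals on both sides of 0.

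Alg2, a mannosyltransferase of the lipid-linked precursor of N-glycans (ENSMUSG00000039740, chr4:47465067-47474333, minus strand), varied least. It was at 5055 to 6329 in aCSF and 5333 to 6113 in L-fucose, with means of 5708 ± 544 and 5651 ± 282.5. Its log2 fold change of -0.01 had the narrowest interval of the 9 genes, -0.18 to 0.16. The sign turned when aCSF 2, aCSF 6, L-fucose 4 or L-fucose 5 was left out (0.018, 0.020, 0.0017 and 0.0060).

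Galnt12, one of the enzymes that start mucin-type O-glycans by adding N-acetylgalactosamine to serine or threonine (ENSMUSG00000039774, chr4:47091909-47123070, plus strand), was the least read of the 9. It had 22 to 108 reads per library, against 370 to 9134 for the others. aCSF 1 to 6 stood at 84.8, 73.9, 21.7, 33.2, 24.7 and 55.1 normalized reads, and L-fucose 1 to 6 at 39.3, 65.7, 56.7, 50.7, 46.3 and 88.8. The aCSF libraries spanned nearly the whole range. The log2 fold change of 0.37 (standard error 0.35, limma adjusted p 0.901) had an interval of -0.36 to 1.11, which does not exclude an increase of 1 log2 unit. On recovered reads it was 0.25 in both edgeR and DESeq2. The coefficient of variation was 54.3% in aCSF and 30.4% in L-fucose. The log2 fold change was 0.18 without aCSF 3 and 0.57 without aCSF 1.

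Golph3 encodes a Golgi protein that binds phosphatidylinositol 4-phosphate and keeps glycosyltransferases in the Golgi stack (ENSMUSG00000022200, chr15:12321450-12351591, plus strand). It had 2627, 3138, 3417, 3037, 4216 and 4400 in aCSF 1 to 6 and 3448, 2699, 2675, 2650, 2933 and 3066 in L-fucose. As for Fut9, aCSF 5 and 6 were above all other libraries. The means were 3473 ± 697 and 2912 ± 310.5, a log2 fold change of -0.24 (standard error 0.12, interval -0.48 to 0.0071, limma adjusted p 0.842), and -0.07 without aCSF 5 and 6. The gene 1810049J17Rik on the other strand shares 13.8% of the exonic bases of Golph3, with the same uncertainty as for Nans.

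**Figure D2:**
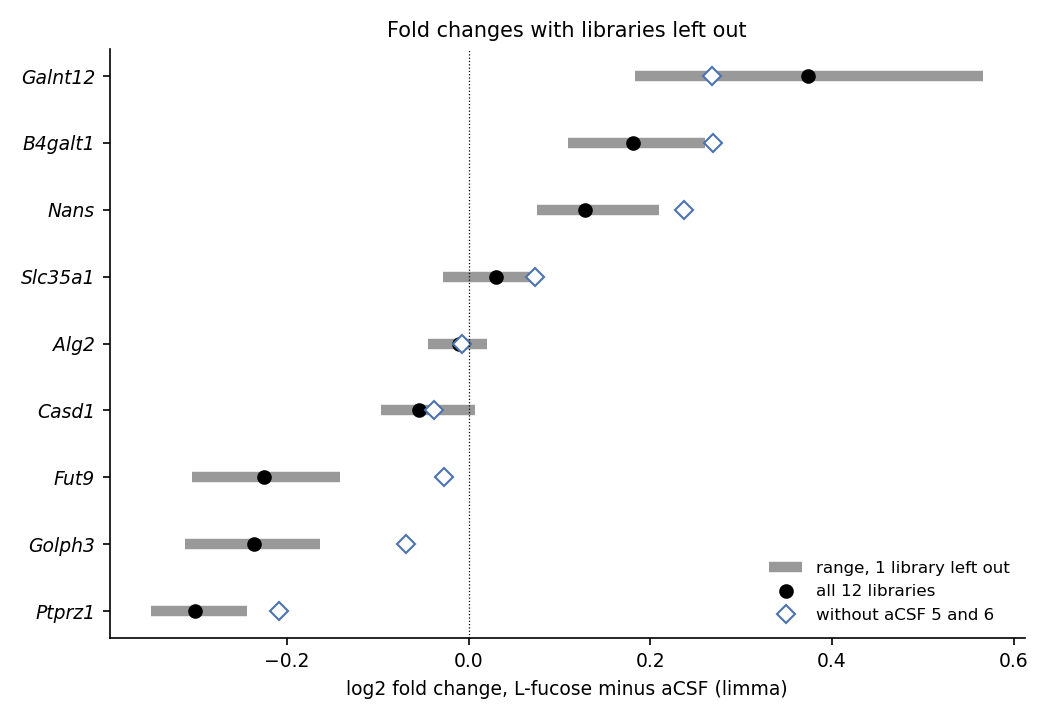
Log2 fold change, L-fucose minus aCSF (horizontal axis), of the 9 genes with all 12 libraries (black), over the fits with 1 library left out (grey bar) and without aCSF 5 and 6 (open diamonds). Fut9 moves from -0.23 to -0.03 and Golph3 from -0.24 to -0.07 without those 2 libraries, while Ptprz1 moves from -0.30 to -0.21.

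In 3 of the 9 genes (33.3%), Fut9, Golph3 and Ptprz1, aCSF 5 and 6 were the 2 highest of the 12 libraries. This was so for 6.28% of all tested rows and for 13.5% of those in the stretches, and for 1 (14.3%) of the 7 other glycosylation genes described below. They were the 2 lowest for 0 of the 9 genes, against 5.95% and 0.862%. The spread also differed between groups: the coefficient of variation was larger in aCSF for 8 of the 9 genes (88.9%), all but Casd1, against 64.8% of all tested rows and 63.2% of those in the stretches. For Fut9 it was 23.5% in aCSF and 9.57% in L-fucose, and for Golph3 20.1% and 10.7%. With aCSF 1 to 4 alone the count was again 8 of 9, against 44% of all tested rows and 47.7% of those in the stretches. The exception was then Ptprz1 in place of Casd1, and Golph3 was nearly equal in both groups. Of the 7 other glycosylation genes, 57.1% had the larger coefficient in aCSF, and 28.6% had it with aCSF 1 to 4 alone. These differences in spread were not tested.

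Fut9 and Golph3 were also correlated over the other libraries, though not past adjustment. As aCSF 5 and 6 form a separate pair of points, coefficients for Fut9 are given over the 10 other libraries: Pearson's r was 0.72 and Spearman's rho 0.75 on log2 values (permutation p 0.0241 and 0.0180, or 0.289 and 0.325 adjusted over 36 pairs). Leaving out the 2 libraries farthest from the Fut9 median gave r = 0.90. Fut9 and Casd1 were at r = 0.75 and rho = 0.66 over the same 10 libraries (permutation p 0.0125 and 0.0448, adjusted 0.224 and 0.403). Their r was 0.43 without the 2 farthest. B4galt1 and Nans were correlated over all 12 libraries at r = 0.85 and rho = 0.83 (permutation p 0.00052 and 0.00171, or 0.00936 and 0.0308 adjusted over 36 pairs). Without the 2 libraries farthest from the B4galt1 median, aCSF 4 and 6, r was 0.72, and within the groups, each centred on its mean, it was 0.83. Without aCSF 5 and 6, r was again 0.83 and rho 0.79 (permutation p 0.00337 and 0.00899, adjusted 0.121 and 0.324), and 0.87 was the r after also leaving out the 2 farthest. Over the 10 libraries 3 of the 36 pairs, those named so far, had an unadjusted permutation p under 0.05 for r. After adjustment 0 passed. Fut9 and B4galt1, the neighbouring steps, were at r = 0.0048 and rho = -0.18 there (permutation p 0.989 and 0.632, the same after adjustment for r and 0.879 for rho, and r = -0.24 without the 2 farthest). Fut9 and Ptprz1 were at r = 0.26 and rho = 0.39 (permutation p 0.452 and 0.266, adjusted 0.912 and 0.735, and r = 0.27 without the 2 farthest). All libraries share tissue and normalization.

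**Figure D3:**
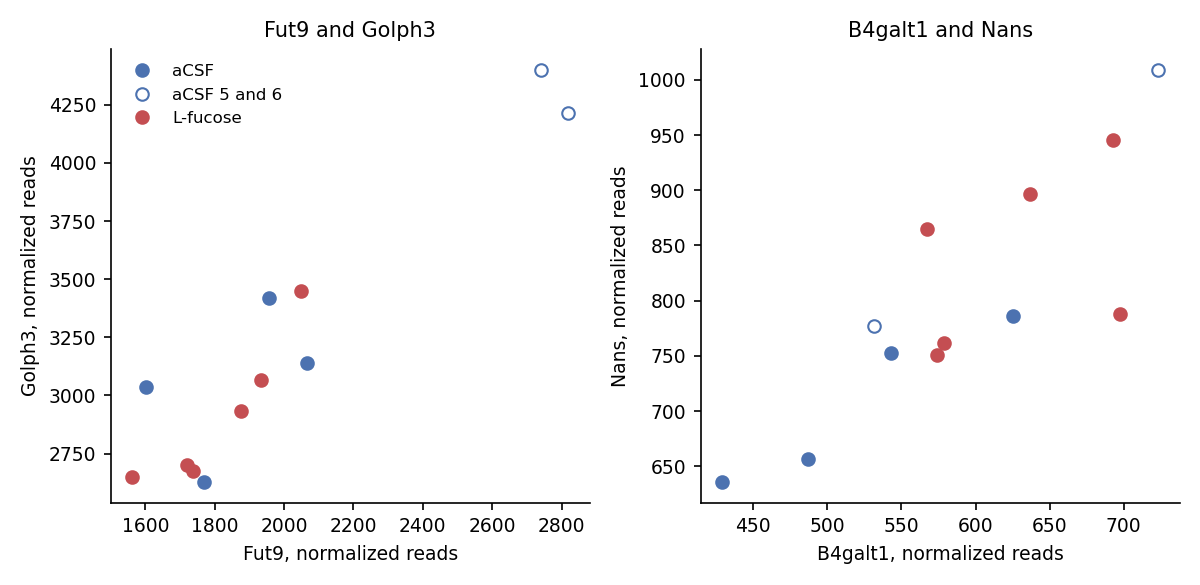
Normalized reads of Golph3 against Fut9 (left) and of Nans against B4galt1 (right), 1 point per library, aCSF in blue and L-fucose in red. aCSF 5 and 6 (open) stand apart at the top right for Fut9 and Golph3. In the right panel aCSF 6 has the highest value of both genes.

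The genes most like Fut9 over the 12 libraries, among 274 other protein-coding genes tested in the stretches, were Zfr, an RNA-binding protein (r = 0.94), Rab2a, a small GTPase of traffic between endoplasmic reticulum and Golgi (0.91), Cav2, a caveolin (0.90), Ndufaf4, an assembly factor of complex I (0.89), and Ccnc, cyclin C (0.87). Without aCSF 5 and 6 the same genes were at 0.73, 0.57, 0.78, 0.71 and 0.69, and Rab2a ranked at place 28. Zfr was also the gene most like Ptprz1 (0.86), followed by Ncbp1 of the nuclear cap-binding complex (0.83), the lysosomal membrane protein Tmem106b (0.82), Tmeff1 (0.82) and Ufl1, the ligase for UFM1 (0.81). Without aCSF 5 and 6 these were at 0.76, 0.63, 0.62, 0.56 and 0.81, and Tmeff1 ranked at place 29. With the mean of each group subtracted they were at 0.83, 0.75, 0.65, 0.62 and 0.70. Tmem106b and Tmeff1 then ranked at places 25 and 28. The coefficients describe these libraries. Log2 fold changes were -0.17 for Zfr, -0.10 for Rab2a, -0.22 for Cav2, -0.07 for Ndufaf4 and -0.16 for Ccnc. They were -0.11 for Ncbp1, -0.25 for Tmem106b, -0.24 for Tmeff1 and -0.24 for Ufl1. Each of these genes had a limma adjusted p of at least 0.827.

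Levels can be compared between genes per length of exon, and on this scale Alg2 was highest at 1646 ± 120.1 normalized reads per kb (SD over 12 libraries), above 94.8% of the 287 tested protein-coding genes of the stretches, and Golph3 came next at 980.1 ± 182. Ptprz1 was at 392 ± 60.5 and Casd1 at 358.5 ± 38.9, with overlapping libraries. Slc35a1 at 198 ± 25, Nans at 175 ± 24.0, Fut9 at 144 ± 29.2 and B4galt1 at 139.5 ± 20.9 overlapped from neighbour to neighbour, near the median of 137.5 for those 287 genes. Galnt12 was lowest at 23.3 ± 9.61, without overlap with B4galt1. Alg2, Golph3 and Ptprz1 did not overlap with one another on this scale. With the longest transcript as the length, Nans moved to 308 and ahead of Slc35a1, and Ptprz1 to 692, in the same place. The libraries of Ptprz1 then just overlapped those of Golph3 and no longer those of Casd1. The lengths come from an annotation that may differ from the one the authors counted on.

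**Figure D4:**
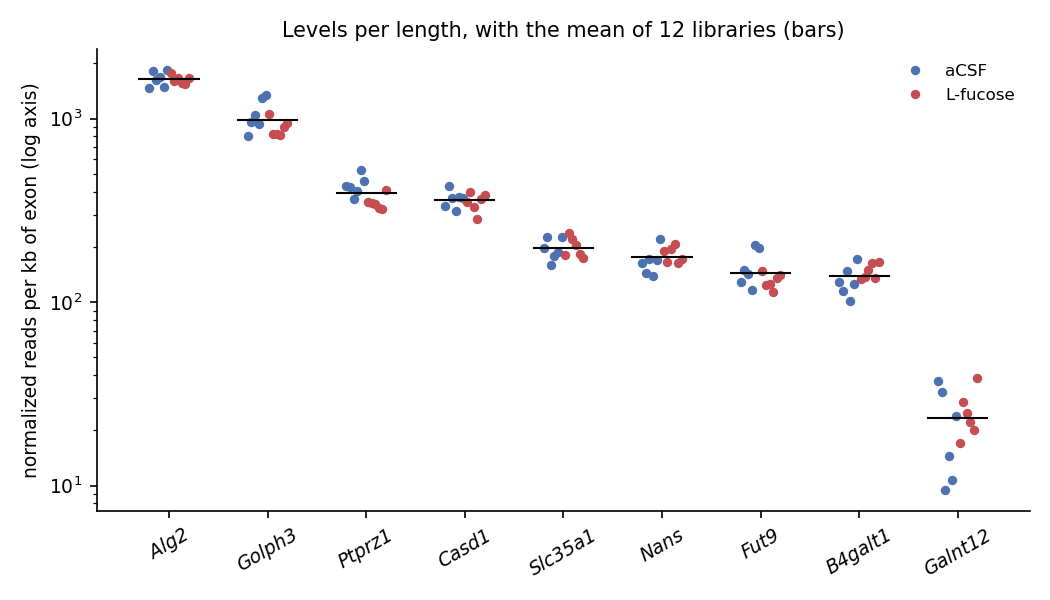
Normalized reads per kb of exon (log axis) of the 9 genes in order of their mean (bars), with aCSF libraries in blue and L-fucose libraries in red. Alg2 and Golph3 lie above the rest, and Galnt12, at a mean of 23.3, lies below it.

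Beside these 9 genes, a list of other glycosylation genes and glycosylated carriers had 9 members in the stretches. The Ugt3a1 and Ugt3a2 rows were at 0 in every library, and 7 were tested, with 0 past the adjusted threshold and 0 at an unadjusted p under 0.05 (5.96% of all tested rows). Their median was 0.01, with 4 positive and 3 negative values. Sgce, epsilon-sarcoglycan of the dystrophin complex, was at 0.18 (interval -0.02 to 0.38), with 1075 ± 87.4 in aCSF and 1218 ± 118 in L-fucose. Manea, a Golgi endomannosidase of N-glycan trimming, was at 0.03. C1galt1, which builds the core of mucin-type O-glycans after enzymes such as GALNT12, was at -0.16 (-0.39 to 0.08), with 485 ± 37.2 and 436 ± 49.8. Impad1 (Bpnt2), the Golgi phosphatase that glycosaminoglycan sulfation depends on, was at -0.16 and -0.06 without aCSF 5 and 6. The heparan sulfate carrier Sdc2 was at -0.11, and Dpy19l4, of a family of C-mannosyltransferases, at 0.01 (-0.0016 in edgeR).

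**Figure D5:**
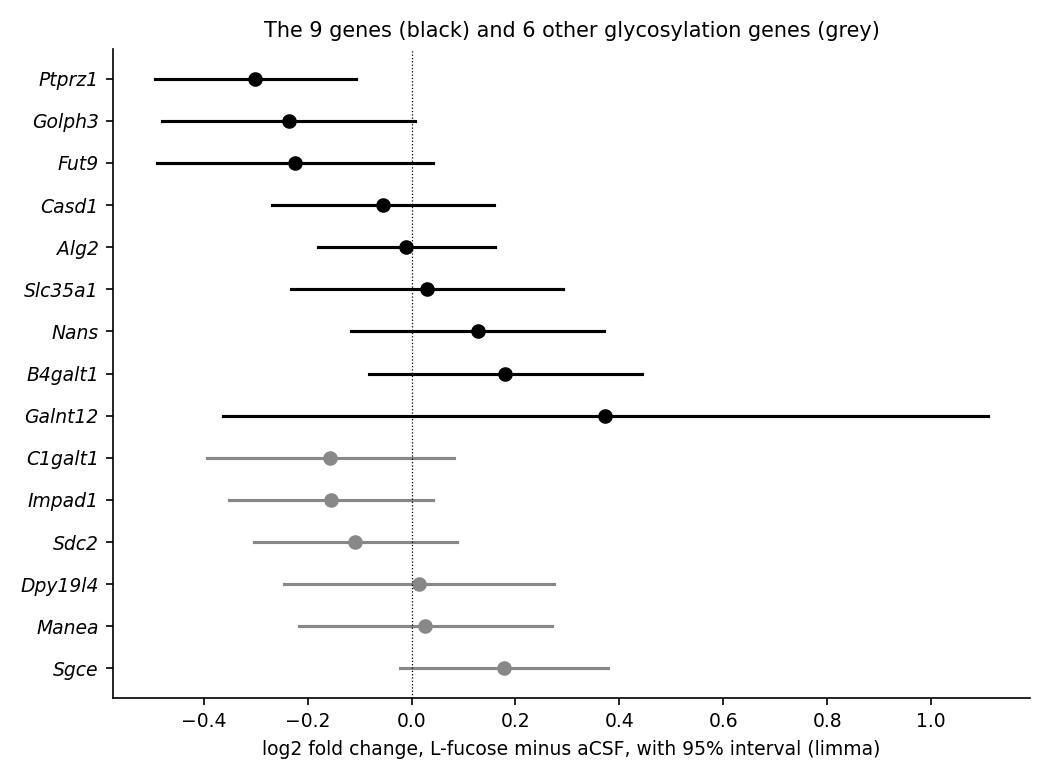
Log2 fold change, L-fucose minus aCSF, with its 95% interval from limma for the 9 genes (black) and the other glycosylation genes of the stretches named in the text (grey). The Ptprz1 interval, -0.49 to -0.11, is the one that does not include 0, and that of Galnt12 is the widest.

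The other genes of fucose metabolism and fucosylation lie outside the stretches, so the names of their rows may not tell what was counted. Of 18 such rows 10 were tested, 0 passed in limma and 0 had an unadjusted p under 0.05, where 0% and 5.96% of all tested rows did, so the count says nothing particular of so short a list. Their fold changes ran from -0.53 to 0.53 with a median of -0.01, 5 on either side. The GDP-fucose enzymes and transporter Gmds, Tsta3, Fpgt and Slc35c1 were among the 8 rows too low to be tested, and no statement on the supply of GDP-fucose can be made from them.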

How the data were processed

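RNA was sequenced from brain sections, 6 libraries in aCSF and 6 in aCSF with L-fucose for 5 hours. Per the submitters' processing notes, the build was mm10 and the tools include DESeq2 (2.11.40.8), featureCounts (2.0.3), Trimmomatic (0.39) and HISAT2 (2.2.1). No source used here gives the annotation release or the strand setting. The deposited signal is normalized: dividing each library's values by what 1 read is worth there gave whole reads for 100% of them, within 0.01 reads. Sums of these recovered reads gave the depth.

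Identifiers were matched to GENCODE M21 (GRCm38), 52073 of 56923 with a symbol. Rows at 10 or more in at least 6 libraries were tested with limma 3.58.1 on log2(value + 1), the group as sole term and a variance trend. P-values were two-sided and adjusted by Benjamini-Hochberg over all 10787 tested rows (threshold 0.05), and fold changes are on this log2(value + 1) scale. edgeR 4.0.16 and DESeq2 1.42.0 on the recovered reads were alternatives and called 0 and 1 rows, the latter not among the 9 genes. Row names were taken as they stand within the stretches. Mitochondrial shares use the rows annotated to the mitochondrial chromosome, outside the stretches, and the position check does not cover them. The scripts were tested on simulated data. Single values per library were compared by exact permutation tests, and correlations of the 9 genes by 100000 permutations. R 4.3.3, Python 3.11.15, numpy 2.4.6, pandas 2.3.3, scipy 1.17.1 and matplotlib 3.10.9 were used.

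The 9 genes and all lists were chosen with earlier results of these data known. The genes named by rule are these 9, the other glycosylation genes of the stretches and the 5 tested genes most correlated with Fut9 and with Ptprz1, without predicted models. Cell type markers, genes of fucose metabolism and genes that share exonic bases with the 9 are also named where a value concerns them, outside that rule. The markers Ncald and Baalc lie outside the stretches and were left out. The values of 1 gene of the glycosylation list are not reported here, and it is included in that list's counts.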

Additional observations from a re-analysis of the deposited data

Results flagged for a closer look

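Among 42 groups of 6 values examined (the 9 genes, 7 other glycosylation genes and 5 measures per library), 2 held a library far from the other 5. This is about the share that chance alone gives (5%). Both concern L-fucose 6. There Ptprz1 stood at 5845 normalized reads while L-fucose 1 to 5 ran from 4603 to 5025, and Dpy19l4 stood at 659.5 while they ran from 540.4 to 573.8.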

How the results depend on the processing

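Over 21 alternatives, 0 of the 9 genes passed the adjusted threshold in any, and Fut9, Golph3, Ptprz1, B4galt1, Nans and Galnt12 kept their direction in all. With 1 library left out, Fut9 ran from -0.30 to -0.14, Golph3 from -0.31 to -0.16, Ptprz1 from -0.35 to -0.24, B4galt1 from 0.11 to 0.26, Nans from 0.08 to 0.21 and Galnt12 from 0.18 to 0.57. Signs turned within Slc35a1 (-0.028 to 0.076), Casd1 (-0.10 to 0.0070), Alg2 (-0.044 to 0.020), Manea (-0.027 to 0.082) and Dpy19l4 (-0.060 to 0.090; -0.0016 in edgeR and -0.0017 in DESeq2), all near 0. DESeq2 called 1 row of the table, Gabrr2 (adjusted p 0.00161), a name given after its value was seen, and had 1054 of 29080 at an unadjusted p under 0.05. That count was 643 of 10787 in limma, 1232 of 29235 without a filter (more rows tested), 426 to 771 with 1 library left out (426 without L-fucose 4), 1177 of 10425 without aCSF 5 and 6 and 1408 of 10182 with L-fucose 6 also left out. The cause of the last 2 rises was not tested. The largest adjusted p over the alternatives of Ptprz1 was 0.985 and the smallest 0.230. With the replicate number as a block, 0 rows passed and 585 had an unadjusted p under 0.05. The same WT numbers occur in both groups, but no label says that a number marks the same animal, so the main fit and the permutation tests did not pair the libraries. Same-numbered libraries correlated between -0.168 and 0.170, and aCSF 2 alone correlated best with the L-fucose library of its own number. These correlations cannot decide whether same-numbered sections came from the same animal. Galnt12, read 22 to 108 times per library, was at 0.25 in edgeR and DESeq2 against 0.37 in limma. How far depth limits it was not tested.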

Other observations

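The Golph3 promoter window held more CpG dinucleotides than 93.8% of all windows, the highest of the 6 windows matched to these genes. Casd1 had 2 windows, with 23 and 5 CpG dinucleotides. The second is downstream of the first in the gene, and its last 20 bases are in none of the GENCODE transcripts of Casd1.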
